A study of Homo sapiens with 23 samples.

Results

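Chromatin loops of the long arm of chromosome 8 were described in T47D, a long-established line of human luminal breast cancer cells that carries the progesterone receptor. A loop was taken as a member when its lower end started at position 46000000 of chromosome 8 or above (hg38). That gave 308 of the 7075 loops listed in the library labelled T0 (4.35%, exact 95% interval 3.89 to 4.86) and 526 of the 9591 listed in the library labelled T30 (5.48%, 5.04 to 5.96). No measured value entered the choice, and both ends of each member lay on chromosome 8. The T0 members ran from 51850001 to 145005000 and the T30 members from 46020001 to 145000000.

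Both libraries came from HiChIP, in which chromatin fragments near each other in nuclear space are ligated and then immunoprecipitated. The antibody recognised the progesterone receptor, per the labels. A listed loop is therefore a contact found in chromatin enriched for the receptor. Whether the receptor was bound at its ends was not checked here. The T0 cells are labelled with no agent. The T30 title names PR5020, read here as the receptor and R5020, a synthetic progestin; the labels give neither the dose for these libraries nor the unit of the time. Per the growth protocol, both were grown without phenol red in charcoal-treated serum and then without serum. Each condition is 1 library, so no difference below has a replicate check, no condition was tested against the other, and all intervals cover counting error only. The remaining samples of the series, which has 23 in all, were not analysed here. Loop lists carry no expression values, so the cell line's identity could not be checked from them.

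The arm carries several genes of breast epithelial biology. GRHL2 and TRPS1 encode transcription factors of epithelial cells, MYC is a proto-oncogene of cell growth, and gain of the arm is a recurrent event in breast cancer. The progesterone receptor is a ligand-activated transcription factor that binds mostly at enhancers, which can lie far from the genes they act on. Loops that join such sites to genes are a usual way to nominate targets.

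T30 listed more loops on the arm than T0, and the surplus was in loops of 20 to 200 kb. Per T0 loop there were 1.71 T30 loops (exact 95% interval 1.48 to 1.97). All loops outside 8q gave 1.34 (1.30 to 1.38). The part of chromosome 8 below the starting position, counted among them, gave 2.36 (1.78 to 3.14), from 73 and 172 loops. Contacts, the read pairs counted between the bins of 5 kb at the ends of a loop, summed to 4750 in T0 and 7548 in T30, a ratio of 1.59 where the rest of the genome gave 1.04. The T0 sums include loops under 20 kb, a span that T30 does not list. These were 12 loops on 8q and 562 elsewhere, with median contacts of 45 and 43. The contact ratio was not compared at equal spans. The intervals take each loop as an independent count, which loops with a common end are not. How deeply either library was sequenced is unknown.

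Span, the distance between the starts of the 2 bins, separated the lists more than number did. The median was 290 kb in T0 (95% interval from order statistics 255 to 315) and 90 kb in T30 (80 to 100). For the rest of the genome it was 185 kb (180 to 190) and 80 kb (75 to 80), so T0 loops of 8q were longer than T0 loops elsewhere and the T30 loops nearly as short. At 20 to 50 kb T0 listed 6 loops and T30 152, and at 50 to 100 kb they listed 20 and 123. Loops of 200 to 500 kb went the other way, with 150 in T0 and 83 in T30, and those of 500 to 1000 kb numbered 47 and 27. T0 alone held loops of 1000 kb or more, 11 of them. The longest, named after its values were seen, ran for 1995 kb from 127730001 in the non-coding CASC11, beside MYC, to GSDMC, a gasdermin gene, with 7 contacts. Another 4 of these loops, of 1220 to 1280 kb with 7 to 14 contacts, started in PTDSS1, a gene of phosphatidylserine synthesis, and ended at 97550001 or 97580001. The longest of T30 spanned 995 kb. T0 also held 12 loops under 20 kb, a span at which T30 lists none anywhere in the genome.

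The ratio of T30 to T0 loops followed the span. With both lists held to 50 kb or more it was 1.29 on 8q (1.10 to 1.51) and 1.06 elsewhere (1.02 to 1.10). At 100 kb or more it was 0.930 on 8q (0.780 to 1.11) and 0.781 elsewhere (0.749 to 0.815). The lowest contact number listed at short spans differed. Among 8q loops of 20 to 50 kb it was 20 in T0, over 6 loops, and 10 in T30, over 152. Outside 8q, where T0 lists 354 loops of that span, it was 12 in T0 and 9 in T30. At 50 to 100 kb it was 14 and 10 on 8q and 10 and 8 elsewhere, and from 200 to 1000 kb on 8q it was 8 in each. The largest p-value listed for an 8q loop was 0.000233 in T0 and 2.80e-05 in T30. The part of these limits in the number of short loops was not tested.

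**Figure D1:**
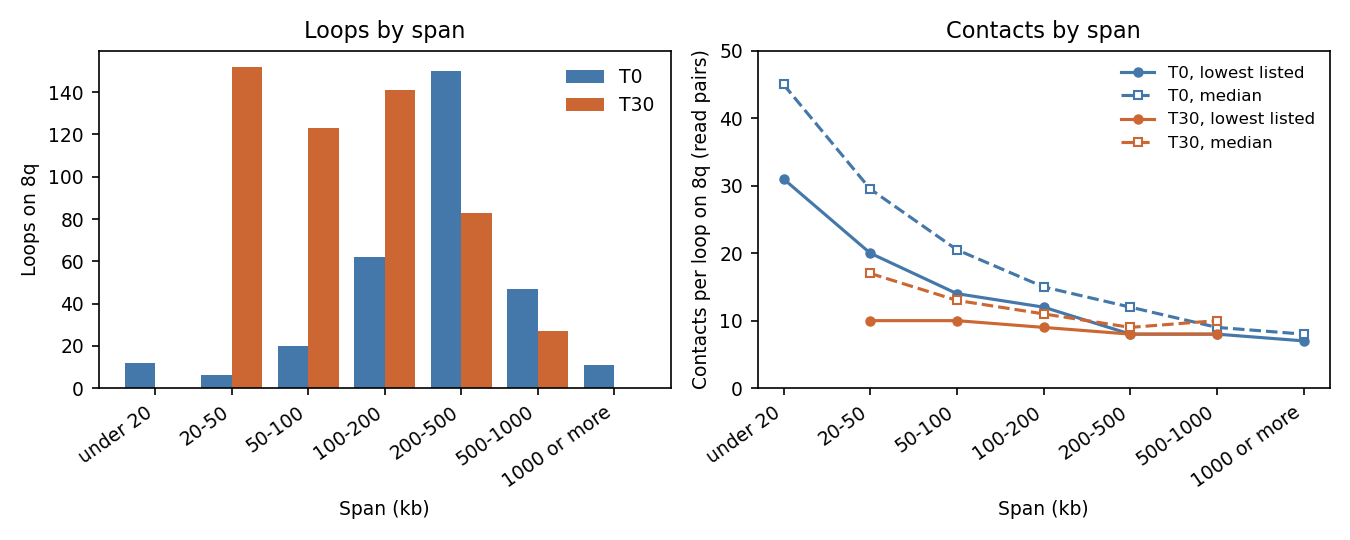
Left, number of loops on 8q by span class (kb) in T0 and T30, 1 library each; right, lowest and median contacts per loop (read pairs) in the same classes. T30 holds 152 loops of 20 to 50 kb against 6 in T0, and the lowest listed T0 loop there has 20 contacts against 10 in T30.

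Contacts per loop had the same median in both lists, 13 in T0 (12 to 14) and 13 in T30 (12 to 13), but in each span class from 20 to 500 kb the T0 median was higher. At 100 to 200 kb the medians were 15 and 11, and at 200 to 500 kb 12 and 9. At 500 to 1000 kb they were 9 and 10. The loops with most contacts are described for each list apart. T30 lists no loop under 20 kb, so none of that span could be among its first 10. In T0, 7 of the first 10 spanned 10 kb and 1 spanned 15 kb. They lay, for example, beside GRHL2 in its divergent transcript GRHL2-DT (57 contacts, 101475001 to 101485001), at the lower end of PLEC, which encodes the cytoskeletal linker plectin (57, 143905001 to 143915001), and within CYRIB, a regulator of actin dynamics (51, 129925001 to 129935001). In T30 the first was between NDUFAF6, a gene for assembly of respiratory complex I, and PLEKHF2, an endosomal protein gene (59 contacts, 95110001 to 95130001). That loop had identical bins and 48 contacts in T0. The next was within ZNF704, a zinc finger gene, with 54 contacts between 80750001 and 80805001, and had no counterpart in T0. Of the first 10 loops of T30, 4 had an end in C8orf34, and 3 of these had no counterpart in T0.

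Over 100 windows of 1 Mb, counted where the lower end of a loop starts, T0 averaged 3.08 loops and T30 5.26, with a median of 2 in each. T0 had loops in 66 windows and T30 in 63, including 51 common to both, and in 22 windows no loop started. The lists were unequally concentrated. The 10 fullest windows held 119 loops, or 38.6%, in T0 and 305 loops, or 58.0%, in T30, and 6 windows were among the first 10 of both. Across the 100 windows the T0 and T30 counts had a Spearman rho of 0.62, given as a description, and the number of protein-coding genes had a rho of 0.49 with T0 and 0.57 with T30. Windows share a library, and loops counted in neighbouring windows can have a common end.

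Of the 23 windows with at least 10 loops over both lists, 15 had at least 2-fold more in T30 (65.2%, exact 95% interval 42.7 to 83.6), where 31.7% of the 517 such windows in the genome did. In the other direction 0 of the 23 had at least 2-fold more in T0, where the genome gave 11.4%; no test was run for either. Restricted to loops of 50 kb or more, 9 of 19 windows had at least 2-fold more in T30 (47.4%), where the genome gave 20.9% of 397. With both lists scaled to the same total, 10 of 23 did (43.5%), where the genome gave 22.2%, and 1 had at least 2-fold more in T0. Counting both ends of each loop gave 19 of 43 windows towards T30 and 6 towards T0, or 44.2% and 14.0%, where the genome gave 32% and 16.7%, so the 0 does not hold once upper ends are counted. The window from 115000001 to 116000000, whose single gene is TRPS1, a GATA-type transcriptional repressor, listed 5 loops in T0 and 39 in T30. The fullest window of T30, from 143000001 to 144000000 with 32 genes, listed 12 and 45. The window of GRHL2, from 101000001 to 102000000, listed 15 and 34, that of ZNF704 and TPD52, from 80000001, 13 and 35, and that of C8orf34, from 68000001, 2 and 23.

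The fullest window of T0, from 123000001 to 124000000, held 22 loops in T0 and 41 in T30, short of 2-fold. The next window, from 124000001, held 15 and 12. Median spans in these windows were 395 and 400 kb in T0 against 85 and 125 kb in T30. Where T0 listed more, the largest differences were at 57000001, around FAM110B, with 6 loops in T0 and 0 in T30, and at 60000001, around CLVS1 and CA8, with 7 and 1. FAM110B itself met 2 of the 6 T0 loops, and its 1 T30 loop started in the next window, at 58000001. Windows at 61000001, 65000001, 79000001, 108000001, 120000001 and 122000001 had 5 to 7 loops in T0 and 0 to 2 in T30.

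**Figure D2:**
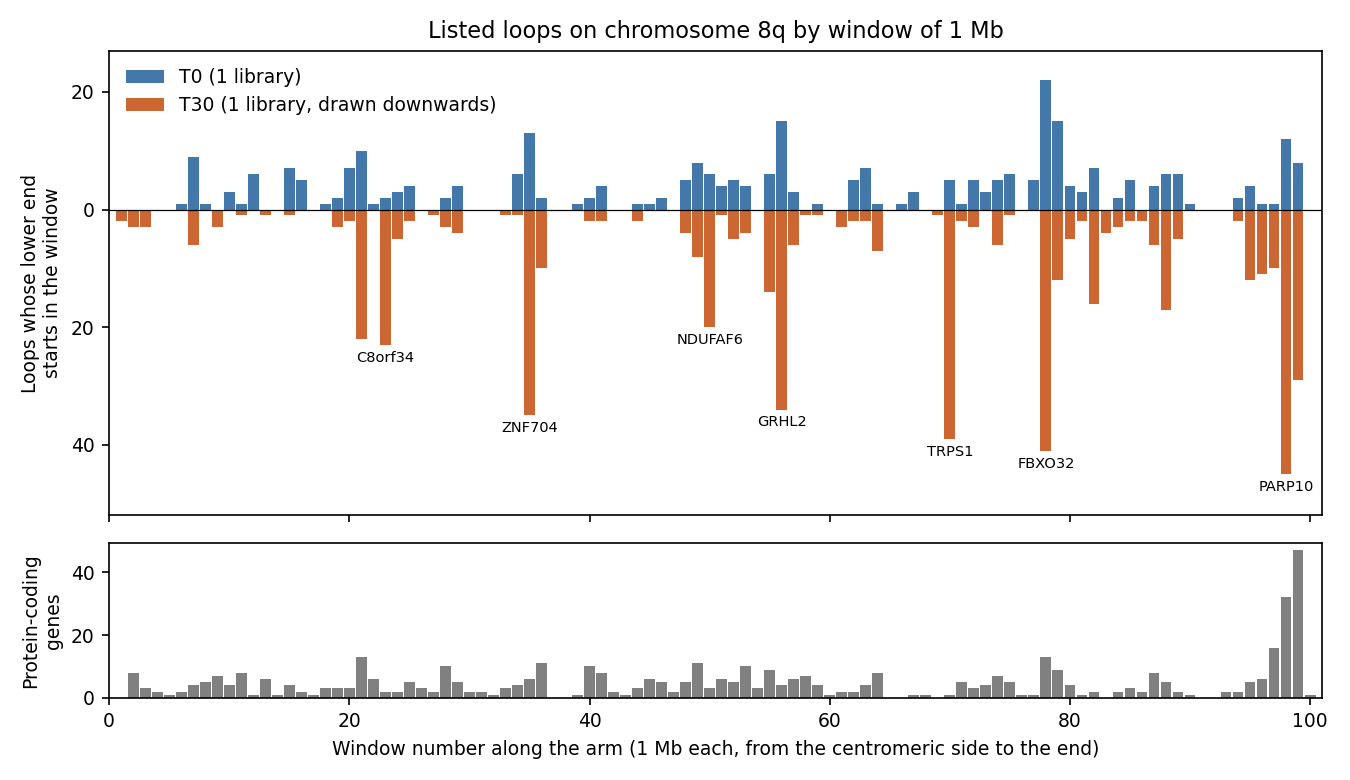
Top, loops whose lower end starts in each of 100 windows of 1 Mb along the arm, T0 drawn upwards and T30 downwards, 1 library each, with a gene of the fullest windows named; bottom, protein-coding genes in the same windows. T30 reaches 45 loops in the window of PARP10 and 39 in that of TRPS1, where T0 has 12 and 5.

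Blocks of 10 Mb differed in the same way. The last block, from 136000001 to 146000000 with 108 genes, listed 28 loops in T0 and 109 in T30 (ratio 3.89, 2.55 to 6.13), the highest of the 10 blocks. Its T0 loops were short, with a median span of 87.5 kb against 235 to 435 kb in the other blocks. The block from 56000001 to 66000000 was the lowest, with 29 and 8 loops (ratio 0.276, 0.109 to 0.618), and 2 loops of each list were found in the other. The block from 116000001 to 126000000 listed nearly equal numbers, 66 and 70 (1.06, 0.747 to 1.51). The other 7 blocks gave ratios from 1.21 to 2.45.

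In 17 windows no loop of either list had an end, lower or upper. These windows held a median of 1 protein-coding gene and the others 4. The longest run of them was 3 Mb, from 75000001 to 78000000 with 4 genes, among them HNF4G, a nuclear receptor gene. RUNX1T1, EYA1 and HAS2 lie wholly or partly in such windows.

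Loop ends were next placed on the 423 protein-coding genes of the arm, out of 19974 in the genome. A gene was counted when a bin of a loop overlapped it. Loops of T0 met 152 genes (35.9%, exact 95% interval 31.4 to 40.7), where 19.7% of all protein-coding genes did. Loops of T30 met 174 (41.1%, 36.4 to 46.0), where the genome gave 23.5%. Of these, 93 genes had a loop in both libraries, 59 in T0 alone and 81 in T30 alone. Outside 8q, 3786 genes met T0 loops, 4520 met T30 loops and 2197 met loops of both. The genes of 8q are longer, with a median of 34.4 kb against 24.1 kb elsewhere, and loops per gene were higher, 0.728 against 0.346 in T0 and 1.24 against 0.463 in T30. Genes of 8q with a loop had a median length of 50.4 kb and those without 24.4 kb. The part of gene length in the share was not tested. At the bins that hold an end of a gene, the numbers were 88 and 111.

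The kind of site joined also differed between the lists. Both ends lay in protein-coding genes for 82 of 308 T0 loops (26.6%, 21.8 to 31.9) and 201 of 526 T30 loops (38.2%, 34.0 to 42.5). Both ends lay in the same gene for 19 T0 loops (6.17%, 3.75 to 9.47) and 105 T30 loops (20.0%, 16.6 to 23.6). Shorter loops can more easily stay within a gene, and the share was not compared at equal spans. Neither end lay in a protein-coding gene for 68 T0 loops (22.1%) and 128 T30 loops (24.3%). Of these, 29 and 78 had an end in a gene of a long non-coding RNA. Shares of this kind for loops outside the arm are not available to set beside these. Whether the differences between the lists are particular to the arm was therefore not tested.

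Partners, the distinct bins joined to the bins of a gene, summarise how widely a gene was connected. On 8q 138 genes had more partners in T30 (32.6%, 28.2 to 37.3) and 76 had fewer (18.0%, 14.4 to 22.0), where 16.5% and 11.6% of all protein-coding genes did. Among the 56 genes with at least 5 partners over both lists, 31 had at least 2-fold more in T30 (55.4%, 41.5 to 68.7) and 5 at least 2-fold more in T0 (8.93%, 2.96 to 19.6). The genome gave 41.4% and 17.1% by that rule. The interval towards T0 includes the genome's value, and that towards T30 starts just above it. Both take genes as independent, but some share loops, as TPD52 and TPD52-MRPS28 do. The rule was also added after the data were seen, so neither interval is a test.

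ZNF704 had the largest difference towards T30, with 1 partner in T0 and 20 in T30, from 1 and 20 loops with 12 and 282 contacts. The bins that hold its 2 ends had 0 partners in T0 and 1 in T30, so nearly all its partners were met by bins inside the gene. NDUFAF6 had 5 and 23 partners (5 and 24 loops, 120 and 414 contacts). AGO2, which encodes the slicer Argonaute of RNA interference, had 2 and 12, and GRHL2 4 and 12. TRIM55, a muscle ubiquitin ligase gene, FABP12, a fatty acid binding protein gene, and FBXO32, which encodes the ubiquitin ligase subunit atrogin-1, each had 1 and 9. SYBU, a kinesin adaptor gene, TOP1MT, the mitochondrial topoisomerase I gene, and OPLAH, the 5-oxoprolinase gene, each had 0 and 8. At the bins that hold the gene's ends, OPLAH had 0 and 8 partners, TRIM55 1 and 8 and FBXO32 0 and 8, while the other 7 of these 10 genes had 0 to 2 in T0 and 0 to 3 in T30.

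Towards T0 the differences were smaller. NUDCD1 had 5 partners in T0 and 0 in T30, and CLVS1, CSMD3, a long gene of the nervous system, and SAMD12 had 4 and 0 each. COL14A1, a fibril-associated collagen gene, had 6 and 2, and ST18, a zinc finger gene, 6 and 3. MTFR1, MRPS28, a mitochondrial ribosome gene, and SLC26A7, an anion transporter gene, had 3 and 0 each, and PDE7A, a cyclic AMP phosphodiesterase gene, 4 and 1. In both lists, genes with 5 or more partners included ANXA13, an annexin gene (6 and 9), TPD52 (5 and 9) and DNAJC5B (7 and 5). MTSS1, an actin-binding protein gene (7 and 5), ST3GAL1, a sialyltransferase gene (7 and 5), and NDUFAF6 did so too. TPD52 overlaps the read-through gene TPD52-MRPS28, so their loops cannot be told apart.

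**Figure D3:**
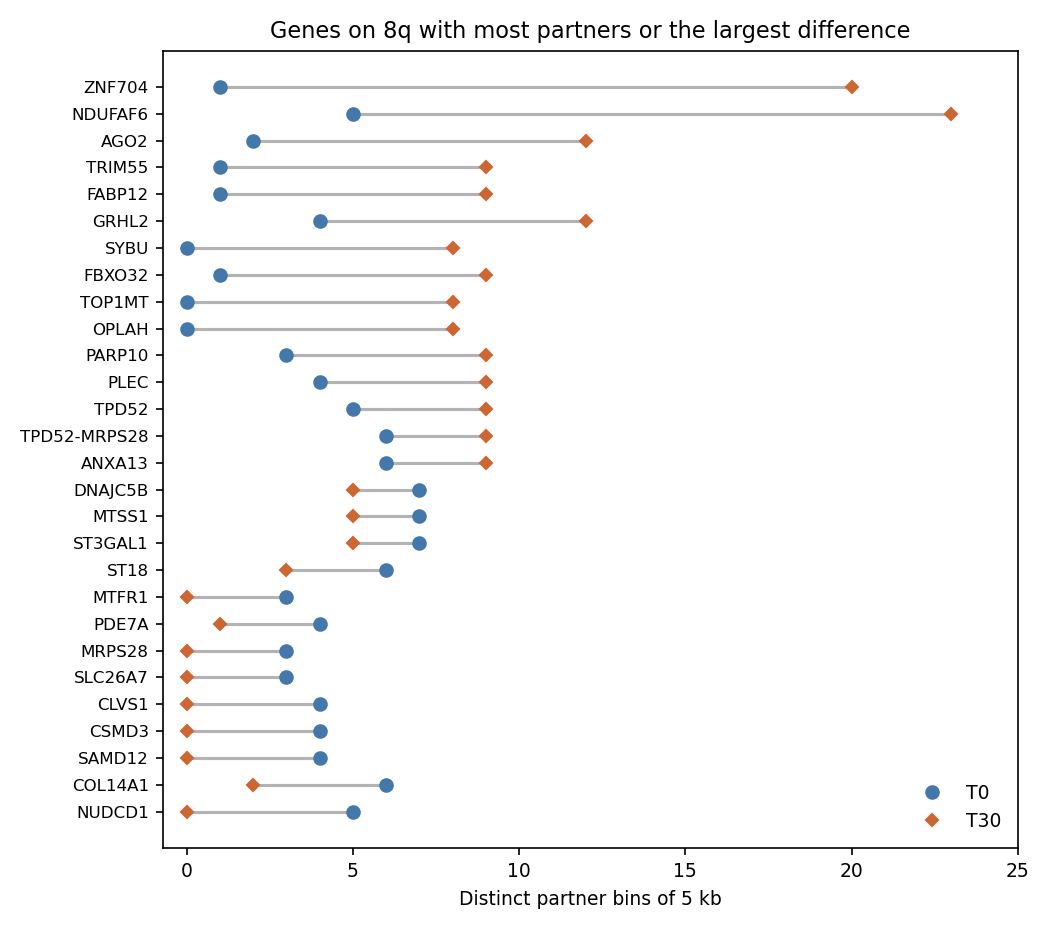
Distinct partner bins of 5 kb in T0 (circles) and T30 (diamonds), 1 library each, for the genes of 8q with most partners or the largest difference, ordered by T30 minus T0. ZNF704 goes from 1 to 20 and NDUFAF6 from 5 to 23, and NUDCD1 from 5 to 0.

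Gene lists drawn up for the arm were read against the 423 genes of 8q, with loops at 35.9% (T0) and 41.1% (T30) and a median change in partners of 0. Over these 423 genes, 32.6% had more partners in T30 and 18.0% fewer, where all protein-coding genes gave 16.5% and 11.6%. The lists were drawn up with earlier results of these data known, so their counts are no test against the arm. They share members and describe these libraries only. Among 23 transcription factor genes, T0 loops met 8 and T30 loops 13. Partners were more in T30 at 12 and fewer at 2, with a median change of 1. Besides ZNF704 and GRHL2, TRPS1 had 2 loops with 30 contacts and then 8 with 113. HSF1, the heat shock factor gene, had 0 and 3 loops, and MAFA, a gene of pancreatic beta cells, 0 and 4. KLF10, a TGF-beta-inducible factor gene, had 1 loop of 27 contacts in T0 and 3 loops in T30, the strongest of 14 contacts. HEY1, a Notch target gene, had 2 and 0. At MYC the lists held 2 and 4 loops, and 5 each when the gene was widened by 10 kb.

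Of 13 steroid and growth factor responsive genes, 8 met T0 loops and 10 met T30 loops, with more partners at 8, fewer at 2 and a median change of 2. TPD52, an androgen-responsive gene overexpressed in breast cancer, had 6 loops with 96 contacts in T0 and 9 with 140 in T30. NDRG1, a stress- and androgen-responsive gene, had 1 and 2 loops, SGK3, a kinase gene of the SGK family, 0 and 3, and DEPTOR, the gene of an mTOR-binding inhibitor, 2 and 3. SNAI2, a repressor of epithelial genes, had 0 and 2, and CEBPD 0 and 1. TRIB1, a pseudokinase gene, had 2 and 1.

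Of 29 genes of the 8q gain, T0 loops met 14 and T30 loops 19, with more partners at 15 and fewer at 6. YWHAZ, which encodes a 14-3-3 protein, had 0 and 3 loops, EIF3H, a translation initiation factor gene, 0 and 2, BOP1, a ribosome biogenesis gene, 0 and 3, and ATAD2, a bromodomain gene, 0 and 2. Against these, ASAP1, a regulator of small GTPases, had 5 loops in T0 and 1 in T30. SQLE, a gene of cholesterol synthesis, had 3 and 1, as PTDSS1 had 4 and 1. Of 13 epithelial and secretory genes, 4 were met in T0 and 7 in T30, with more partners at 7 and fewer at 0. PLEC had 3 loops with 111 contacts in T0 and 9 with 125 in T30. ESRP1, an epithelial splicing factor gene, had 0 and 1.

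In the remaining lists the median change in partners was 0, as over the whole arm. Of 25 signalling genes, 12 met T0 loops and 11 T30 loops, with more partners at 8 and fewer at 6. Among them CCN4, a Wnt-inducible matricellular gene, had 4 and 5 loops and STK3, a Hippo pathway kinase gene, 4 and 3. For coregulator and genome maintenance genes the counts were 4 and 6 of 16. NCOA2, a coactivator of steroid receptors, had 4 loops with 65 contacts in T0 and 1 with 11 in T30. Mitochondrial and metabolic genes had 5 and 6 of 17, with NDUFAF6 far ahead of the others. Genes of other tissues, a list drawn up in the same way and so no neutral background, had 6 and 7 of 22. Partners were more at 6 and fewer at 4. TG, the thyroglobulin gene, had 3 loops in T0 and 6 in T30, one of which joined it to CCN4 in both lists.

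Hubs, bins with 5 or more partners, were more numerous in T30. T0 had 7 among 439 bins with a loop on 8q (1.59%, exact 95% interval 0.643 to 3.26), where 2.44% of all bins with a loop did. T30 had 26 among 651 (3.99%, 2.63 to 5.80), where 2.21% did. Loops with an end at a hub numbered 41 in T0 and 185 in T30. At q under 0.01 there were 2 and 14 hubs, and joining adjacent bins gave 11 and 39. Most bins met a single partner, 75.9% in T0 and 73.3% in T30.

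The hubs of the 2 libraries also had different shapes. Each of the 7 T0 hubs reached to a single side, and 4 of the 26 T30 hubs did. No count of single-sided hubs outside 8q is available to set beside these. The largest T0 hub was the bin at 124425001, 20.8 kb from TYW2, a tRNA modification gene. It joined 8 bins, all below it, down to 123785001, and held 107 contacts, with 4 partners and 41 contacts in T30. The T0 hub in MTSS1 at 124590001 joined 6 bins above it and had 1 partner in T30. The bin at 123690001 in ANXA13 was the single hub of both lists, with 6 partners in each and 104 and 85 contacts.

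In T30 the largest hub was the NDUFAF6 bin at 95110001, with 17 partners and 313 contacts. It reached 8 bins above and 9 below it, from 94820001 to 95275000, and its 3 T0 loops (76 contacts) were all found again in T30. The bin at 68850001, 31.0 kb above C8orf34 in LOC107986951, had 16 partners and 238 contacts against 1 partner and 14 contacts in T0, and reached SULF1, an extracellular sulfatase gene. Of the ZNF704 hubs, the bin at 80805001 had 13 partners and none in T0, also within 10 kb. A bin at 101435001, 52.4 kb below GRHL2, had 11 partners and 305 contacts against 2 and 42 in T0. In PVT1, the non-coding neighbour of MYC, the bin at 127870001 had 9 partners against 1, the shared one joining MYC.

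Around TRPS1 most hubs lay outside the gene. Bins at 115775001, 115800001, 115835001 and 115860001, from 106 to 191 kb above it, had 7, 5, 11 and 10 partners in T30. Of these 4 bins, that at 115835001 alone had partners in T0, 3 with 44 contacts, and those 3 loops were shared with T30. A bin in TRPS1 at 115665001 had 2 partners in T0 and 5 in T30. From these bins loops ran to 116455000 in both lists, and in T30 as far as EIF3H. Of the 26 T30 hubs, 14 lay in a protein-coding gene, 5 in a non-coding gene alone and 7 in neither, and 14 had a T0 loop in the same bin.

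**Figure D4:**
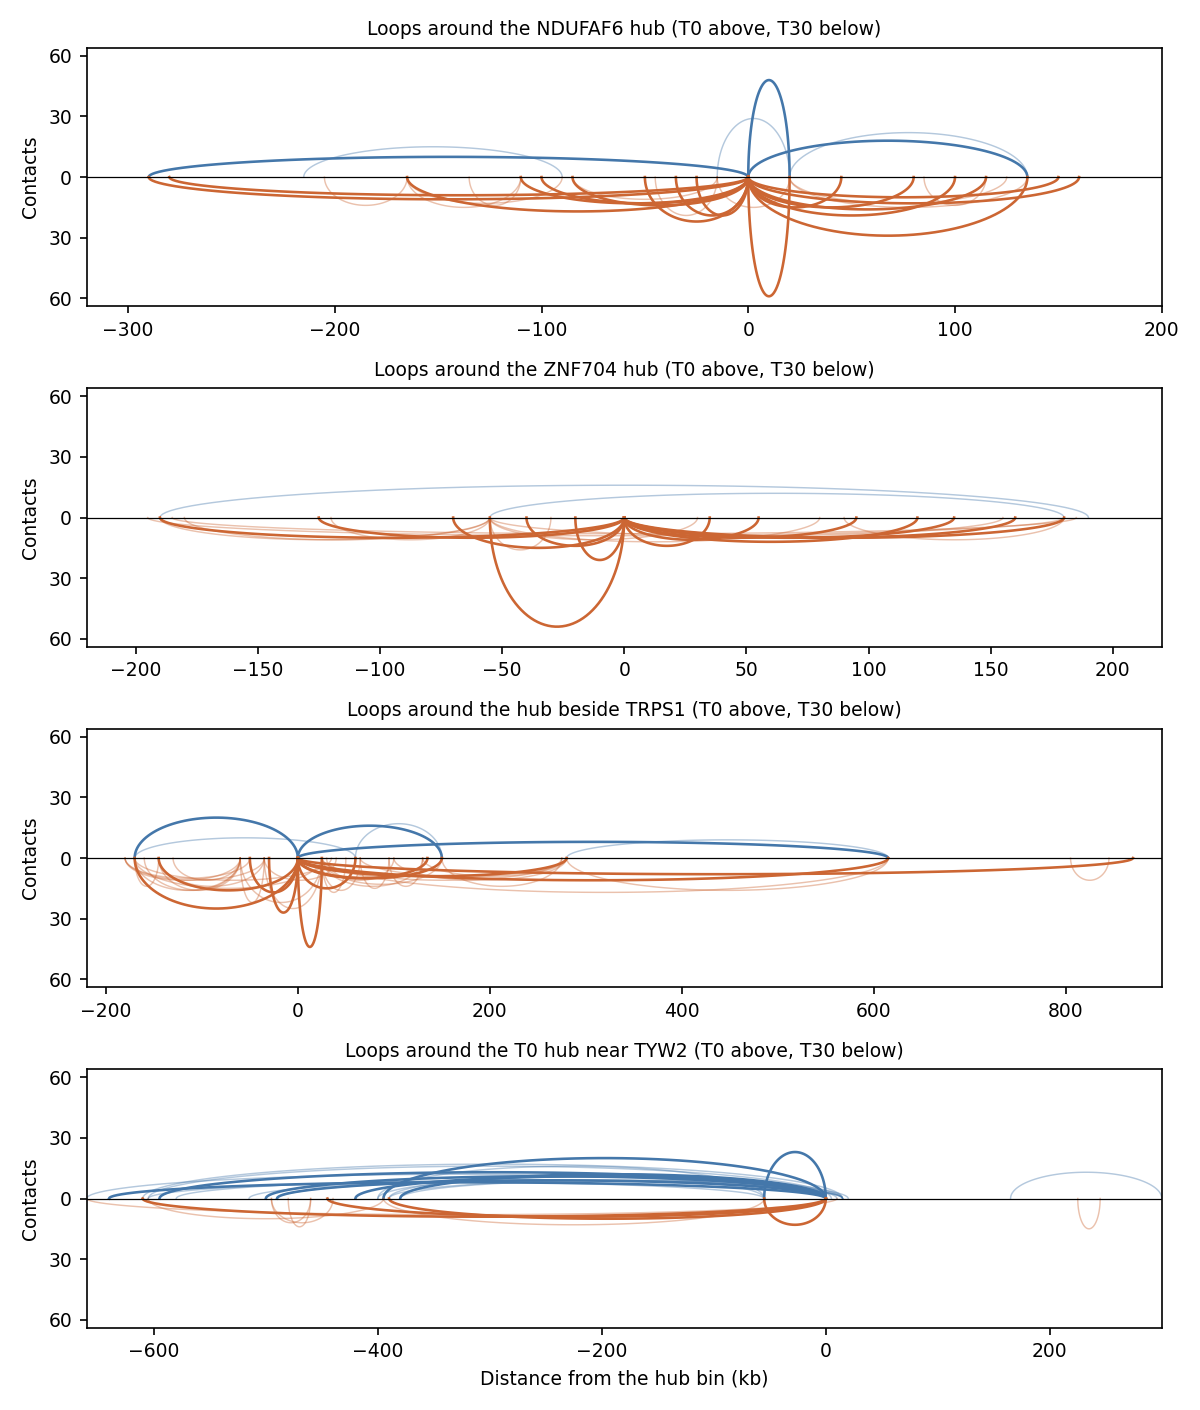
Loops around 4 hub bins, by distance from the hub in kb; each arc is a loop, its height is its contacts, T0 is drawn above and T30 below, and darker arcs end at the hub. The NDUFAF6 hub has 3 partners in T0 and 17 in T30 on both sides, and the T0 hub near TYW2 has 8 partners on a single side.

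Loops that share a bin were joined into networks. T0 had 139 networks and T30 174, of which 76 and 111 were a single loop. Networks of 5 or more loops numbered 14 in T0, with 33.4% of the loops, and 23 in T30, with 59.9%. Closed triangles of 3 bins joined to each other numbered 3 in T0 and 39 in T30. Counts of networks and triangles outside the arm are not available to set beside these. Whether the differences in networks and triangles are particular to the arm was therefore not tested. The largest network of T30, at TRPS1 and EIF3H from 115655001 to 116710000, had 40 loops over 26 bins and 13 triangles, and the T0 network there had 6 loops. In T30 the next were those at GRHL2 and at FBXO32 and ANXA13, with 30 loops each, at NDUFAF6 with 27, and around PLEC, PARP10, OPLAH and MAF1, from 143835001 to 144260000, with 24. The largest of T0, from 123785001 to 124450000 over FAM91A1, FER1L6 and TMEM65, had 19 loops and no triangle.

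Recurrence between the lists was low on 8q. Calling a loop shared when the merged ranges of both its ends overlapped those of a loop in the other list, 72 of 308 T0 loops were found again in T30 (23.4%, exact 95% interval 18.8 to 28.5) and 82 of 526 T30 loops in T0 (15.6%, 12.6 to 19.0). The rest of the genome gave 22.1% (21.2 to 23.1) and 16.5% (15.7 to 17.2), inside those intervals. With identical bins the shares were 9.74% and 5.70%, and with both bins within 10 kb 33.8% and 20.7%. Of 152 T30 loops of 20 to 50 kb on 8q, 7 were shared. Of 141 loops of 100 to 200 kb, 29 were.

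Loops that were not shared often had ends near those of the other list. Besides the 82 shared T30 loops, 83 (15.8%, 12.8 to 19.2) had both ends within 10 kb of a T0 end. For 35 of these a single T0 loop joined both ends at that distance, and for 48 none did. Another 193 (36.7%, 32.6 to 41.0) had 1 such end and 168 (31.9%, 28.0 to 36.1) had none. Of the T0 loops, 83 (26.9%), 66 (21.4%) and 87 (28.2%) fell in these classes, and of the 83 a single T30 loop joined both ends for 34. The same bins were used in both lists in 138 of 952 cases.

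Contacts were compared over 67 matched pairs, each loop used once and the nearest bins paired first. The median ratio of T30 to T0 contacts was 0.692 (95% interval from order statistics 0.625 to 0.769), against 0.667 (0.643 to 0.667) over the 1389 pairs of the genome. Fewer contacts in T30 were found for 50 pairs, more for 16 and equal numbers for 1. Relative to the genome's median ratio, 8 pairs (11.9%, 5.30 to 22.2) were at least 2-fold above it and 2 (2.99%, 0.364 to 10.4) at least 2-fold below, where the genome gave 4.68% and 1.51%.

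The highest ratio was at C8orf34, between 68755001 and 68850001, with 14 contacts in T0 and 34 in T30 (ratio 2.43, exact 95% interval 1.27 to 4.90). A loop from MYC at 127735001 to the PVT1 hub had 14 and 25 (1.79, 0.893 to 3.72). A loop between 116115001 and 116450001, beyond TRPS1, had 9 and 16 (1.78, 0.740 to 4.56). Next came 2 loops at GRHL2. The first joined bins below the gene and had 21 and 36 (1.71, 0.974 to 3.09). The other had 30 and 49 (1.63, 1.02 to 2.67), with bins at 101440001 and 101485001 in T0 and at 101435001 and, in the gene, 101490001 in T30. In 2 of these 5 loops the interval lay wholly above 1, and in all 5 it lay above the genome's median ratio. The 5 loops were picked for the highest ratios, so these intervals are no test of them.

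The lowest ratio was at 143845001 to 143900001, below PLEC, with 50 contacts in T0 and 13 in T30 (0.260, 0.130 to 0.486). A loop at KLF10 had 27 and 9 (0.333, 0.138 to 0.730), one at DEPTOR 31 and 11 (0.355, 0.161 to 0.725), one from TG to CCN4 37 and 14 (0.378, 0.189 to 0.717) and one from NCOA2 to 70530001 29 and 11 (0.379, 0.171 to 0.782). Only the first of these intervals lay below the genome's median ratio. These loops were likewise picked for their ratios, so the intervals are no test of them. The 3 lowest pairs matched bins that were shifted between the lists, and the TG and NCOA2 loops had identical bins.

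**Figure D5:**
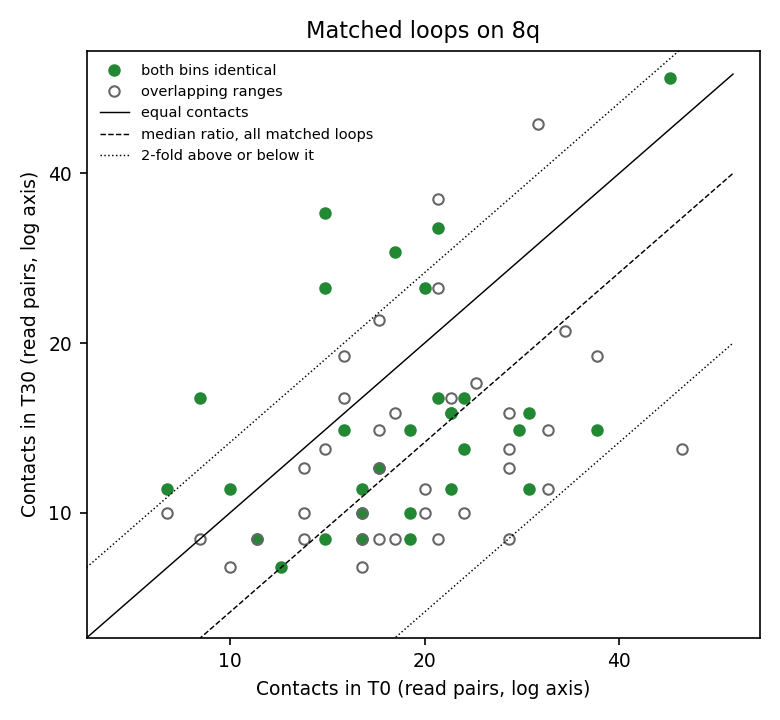
Contacts (read pairs, log axes) in T0 and T30 for the 67 matched loops of 8q, 1 library each; filled points have identical bins, and lines mark equal contacts, the genome's median ratio of 0.667 and 2-fold above and below it. Most points lie under equality, 8 lie at or above the upper dotted line and 2 at or below the lower one.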

How the data were processed

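The deposited loop list of each library was the starting point. Going by file names and values, the authors called loops with FitHiC, kept those at a q-value up to 0.05 and merged near contacts. The submitters' processing notes name Bowtie, hg38 and GRCh38; how they were used, and whether replicates were pooled, is not stated there. As deposited, contacts are raw counts of read pairs joining 2 bins of 5 kb. Every value column was mapped to its library. The authors' q-value served as a filter only in the alternative at q under 0.01. Their p-value was reported and filtered nothing. The authors' fraction per cluster was not used.

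Gene positions came from a RefSeq table of GRCh38.p14, without strand. Chromosome Y was left out. Matched loops were paired by overlap of at least 1 bp at both ends. Members and lists were chosen with earlier results of these data known. The text draws on the 10 fullest windows, bins and loops per library, the 12 best connected genes, the 10 largest differences each way, the 5 highest and lowest contact ratios, and list members; some are given as ranges. The rule of 5 partners with 2-fold difference and the grouping into blocks, networks, end classes and windows free of ends were added after the data were seen. Intervals are exact binomial or from order statistics at 95%. Pairing, partner and gene steps were tested on simulated data. Alternatives were stricter q, contacts or span, other overlaps, gene definitions, hub sizes, windows and scaling. Software was networkx 3.6.1, matplotlib 3.10.9, scipy 1.17.1, pandas 2.3.3 and numpy 2.4.6 under Python 3.11.15.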

Additional observations from a re-analysis of the deposited data

How the results depend on the processing

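Of 76 recomputed values, 50 stayed within the counting interval or 1.5 times the count first given, 26 moved and 0 reversed. Only values of the loop ratio and the contact ratio could be called reversed, by changing sides of 1. A limit of 100 kb or more, at which the 8q loop ratio was 0.930, was not among these settings. At q under 0.01 the median contacts were 15 in T0 and 15 in T30, and hubs numbered 2 and 14. With at least 10 contacts the median spans were 245 kb (T0) and 75 kb (T30), the T30 median contacts 14, and 1 window was at least 2-fold higher in T0. At 50 kb or more, chosen after seeing the data, the loop ratio was 1.29, the T30 median span 132.5 kb, its median contacts 11, the share of T30 loops found in T0 19.5%, T30 hubs 17 and windows higher in T30 9. Identical bins gave shared percentages of 9.74 and 5.70, and bins within 10 kb 33.8 and 20.7. Gene ends gave 88 and 111 genes. Hubs of 8 or more partners numbered 1 and 11, and joined bins gave 11 in T0. Windows higher in T0 numbered 1 with windows of 2 Mb, 1 with lists scaled to the same total and 6 with both ends counted. The cause of these moves was not tested beyond the loops each setting removes or adds. No paired analysis was possible because each HiChIP condition is 1 library. With unknown depth, a loop missing from a list is not shown to be absent.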
